A study of Mus musculus with 10 samples.

Results

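Collagens are the triple-helical proteins of the extracellular matrix, and the mouse genome encodes their chains in a family of genes named Col, a type number, a and a chain number. All genes annotated as protein-coding whose symbol has that form were taken, which gave 44 collagen genes among 21936 protein-coding genes and 55487 genes counted in all. They were sorted into fibrillar chains (8 genes), basement membrane chains of type IV (6), fibril-associated chains with interrupted helices, called FACIT (6), chains of cartilage and vitreous fibrils (7), beaded filament chains of type VI (6), network and anchoring chains (3), transmembrane chains (4), multiplexins (2) and others (2). The rule uses no measured value.

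RNA was measured in the RPE/choroid complex of the mouse eye, which is the retinal pigment epithelium together with the vascular layer behind it. In the 5 libraries called ADQ, the mice were iDTR Adiponectin-Cre. Their adiponectin promoter drives Cre, and Cre switches on a diphtheria toxin receptor at the ROSA26 locus, so that diphtheria toxin should act on adiponectin-expressing fat cells. The 5 control libraries came from iDTR mice without Cre. In the iDTR line the receptor gene, HBEGF, sits at that locus on a C57BL/6 background. Both groups were given diphtheria toxin intraperitoneally. For the Cre mice the series text states an injection every day over 7 weeks. It states no duration for control mice and no age or sex for any mouse. The labels do not say whether each library is from its own animal, and the p-values below reflect only how far these libraries spread, part of which may be technical.

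A collagen molecule is a trimer of chains that are hydroxylated and folded in the endoplasmic reticulum, secreted, trimmed and cross-linked. Fibrillar collagens such as type I build the tension-bearing fibrils of sclera and choroidal stroma, FACIT collagens coat those fibrils, type IV forms the sheet of every basement membrane, and type VIII builds open lattices. Between the RPE and the choroidal capillaries lies Bruch's membrane, a layered matrix whose outer faces are basement membranes and whose inner layers hold fibrillar collagen.

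The 6 type IV genes lie in 3 head-to-head pairs, each transcribed outward from a short shared interval. GENCODE M21 puts the start of Col4a4 on the minus strand of chromosome 1 at 82586849 and the start of Col4a3 on the plus strand at 82586921, with 71 bases between them. Col4a1 and Col4a2 on chromosome 8 share 22 bases at their starts, and Col4a6 and Col4a5 on chromosome X start 1308 bases apart. The Col4a4-Col4a3 interval is shown because these were the neighbouring genes of the family with the clearest lower levels in ADQ. It is at chr1:82586850-82586920 on GRCm38.p6, is read here on the minus strand, the direction of Col4a4, and comes from the RefSeq promoter table. The 250 bases before the start of Col8a1 (chr16:57754738-57754987, minus strand, same table and build) are shown because Col8a1 had the next smallest p-value. Capitals mark the GC box, GGGCGG, which on the strand shown here reads CCGCCC at each of its matches.
Col4a4-Col4a3: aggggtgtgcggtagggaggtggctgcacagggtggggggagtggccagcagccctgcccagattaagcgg
Col8a1: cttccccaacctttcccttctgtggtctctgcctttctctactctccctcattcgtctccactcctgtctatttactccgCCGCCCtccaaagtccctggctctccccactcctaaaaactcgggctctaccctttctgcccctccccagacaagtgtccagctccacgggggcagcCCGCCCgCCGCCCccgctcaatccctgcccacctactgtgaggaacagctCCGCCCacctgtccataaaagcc

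Both strands were searched for the GC box, for the CCAAT box (letters CCAAT) and for the TATA box (letters TATAAA). The Col4a4-Col4a3 interval held no match to any of them, whereas the Col8a1 stretch held 4 GC boxes and neither of the others. Over the promoter windows of the table, which run from 250 bases before to 50 bases after each start, 60.5% of 38 windows of 35 collagen genes held a GC box, against 35.7% of all 32851 windows. The CCAAT box was in 34.2% of the collagen windows and 37.4% of all windows, and the TATA box was in 13.2% of the collagen windows and 13.6% of all windows. These matches describe the letters only.

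Libraries held 43.6 to 64.1 M counts (M, mega) in ADQ and 48.0 to 51.0 M in control. Levels below are counts per M (CPM) scaled by TMM, a normalization that assumes most genes keep their level, and levels of different genes are compared as CPM per kilobase of coding transcript. The summed level of 6 RPE markers ran from 25750 to 38600 CPM in ADQ and from 29960 to 43700 in control, so the labelled tissue was present throughout. The summed level of 7 fat cell markers was 7.36 to 24.9 CPM in ADQ and 6.42 to 155 CPM in control, with control 5 the lowest library of all. Markers of rods and of surface epithelium were uneven among libraries, and the source of these transcripts was not tested. Rod marker sums reached 3695 CPM in ADQ 5 and 2031 CPM in control 1, and were lowest at 502 CPM in ADQ 2 and 554 CPM in control 5. Keratins of surface epithelium summed to 0.791 to 2.05 CPM in ADQ and 2.41 to 2142 CPM in control, where control 3 and control 5 were the highest. In bulk tissue, fewer cells of a type and less RNA per cell cannot be told apart.

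Collagen genes took 0.462% to 0.758% of all counts in ADQ and 0.427% to 0.651% in control. Their levels differed widely: 4 genes were at 100 CPM per kilobase or more over all 10 libraries, 10 between 10 and 100, 12 between 1 and 10, and 18 under 1. The highest were Col8a2 (236 CPM per kilobase), Col9a3 (175), Col8a1 (162), Col1a2 (153) and Col1a1 (84.1). Col8a2, Col9a3, Col8a1 and Col1a2 together made up 59.6% of the summed collagen CPM. The tissue was thus led by type VIII network chains, a single type IX chain and type I, with type IV chains in the middle of the range.

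**Figure D1:**
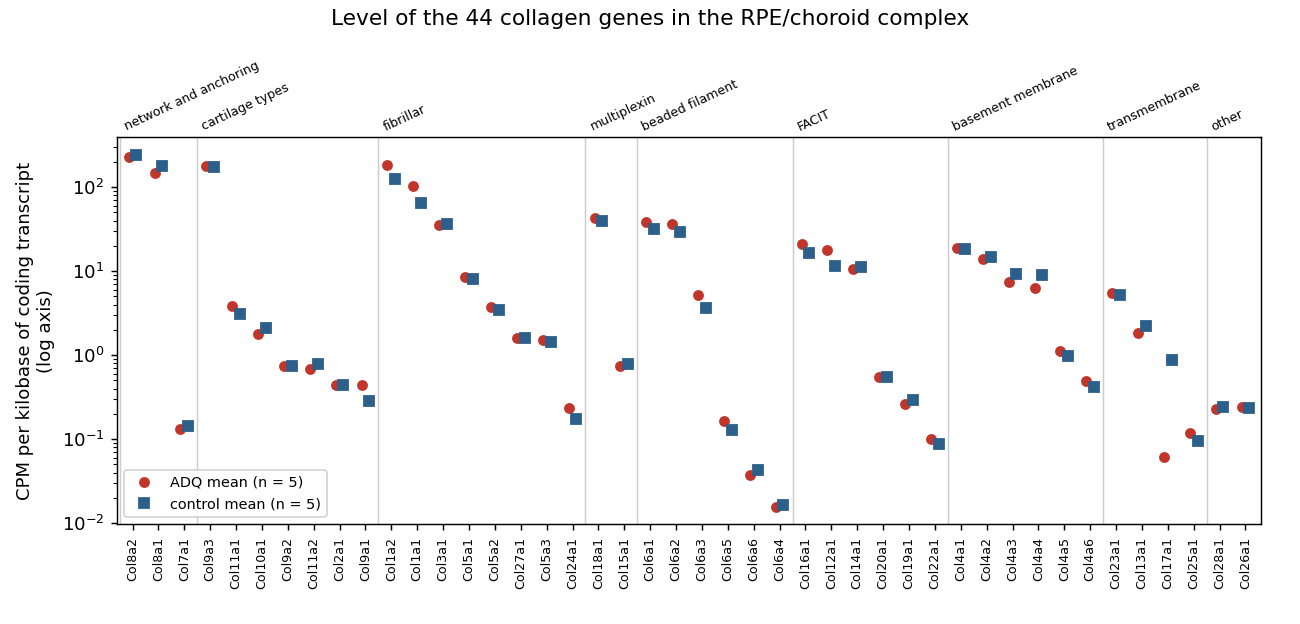
Mean level of each of the 44 collagen genes in ADQ (red circles, n = 5) and control (blue squares, n = 5) in CPM per kilobase of coding transcript on a log axis, grouped by class and ordered by level within it. The group means lie close together for nearly all genes, from Col8a2 at 236 CPM per kilobase over all libraries down to Col6a4, and Col17a1 shows the widest gap.

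The comparison of ADQ with control asks how the matrix genes of this tissue differ when the mice are built to lose adiponectin-expressing fat cells. Of the collagens, only Col4a4 was called at an adjusted p of 0.05, lower in ADQ, and none was called higher. A collagen that was not called may still differ. With edgeR's quasi-likelihood test and Benjamini-Hochberg adjustment over all 20684 genes tested, 43 collagen genes were tested and 1 passed an adjusted p of 0.05, which is 2.33% of them, against 0.827% of all genes. In the lower direction 0.087% of all genes passed, and in the higher direction 0.74%. Before adjustment, 5 collagens had a p under 0.05 (Col11a1 higher, and Col4a3, Col4a4, Col8a1 and Col17a1 lower), or 11.6% of the collagens, against 13.8% of all genes (7.96% higher and 5.85% lower). Over both directions together, collagens as a family therefore did not pass that mark more often than other genes did. By direction, 4 of the 43 passed it lower and 1 higher.

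The log2 fold changes, ADQ over control, had a median of 0.04 over the 43 collagens and 0.01 over all genes tested. They were above 0 for 25 collagens and below 0 for 18, while 51.9% of all genes lay above 0. Only Col4a4 had all its ADQ libraries on one side of all its control libraries, which held in the lower direction for 1.07% of all genes in the higher direction for 2.09% and in either direction for 3.16%. Of the 43 genes, 4 differed by at least 1.5-fold in either direction (Col17a1, Col1a1, Col9a1 and Col12a1), and none of these passed the test. The log2 fold change of Col9a1 was 0.65 with all libraries and between -0.47, without ADQ 5, and 1.17 when 1 library was left out. That of Col12a1 was 0.61 with all libraries and between 0.35, without ADQ 3, and 0.86, without control 3, when 1 library was left out. Col6a4, a type VI chain, was too low to be tested, at 0.0155 to 0.22 CPM in ADQ and 0.0195 to 0.183 CPM in control.

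**Figure D2:**
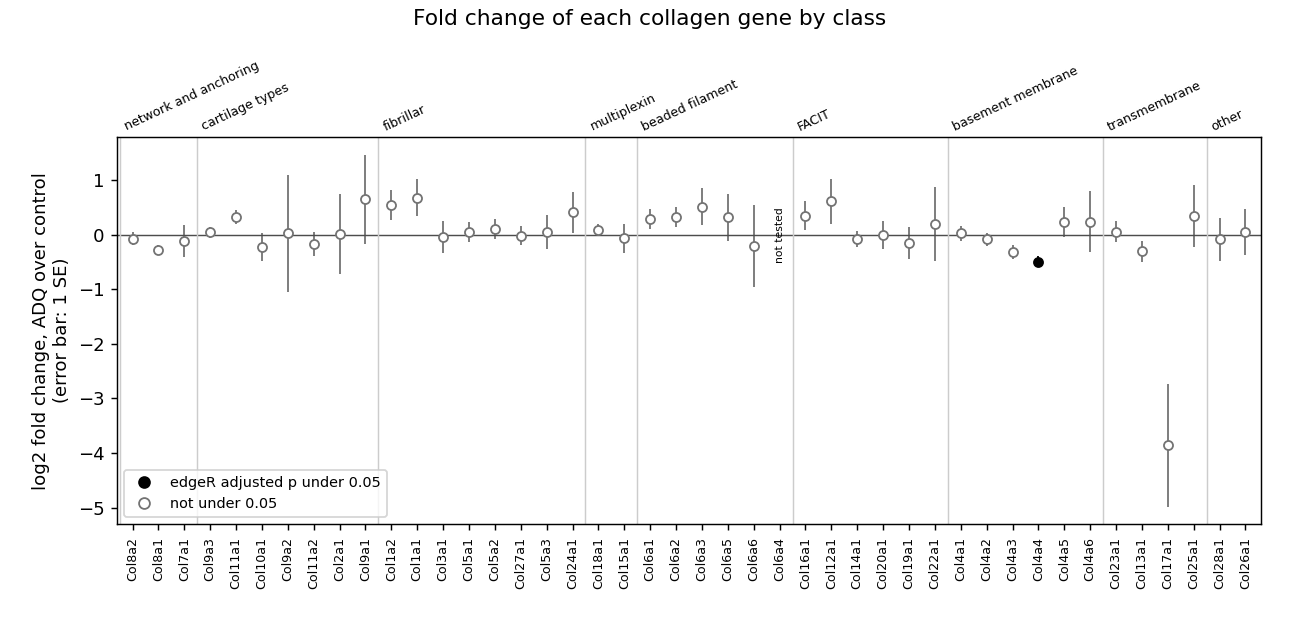
Log2 fold change of each collagen gene, ADQ over control, with an error bar of 1 standard error, grouped by class; the filled circle passed edgeR's adjusted p of 0.05 and open circles did not. Col4a4 at -0.49 is the single filled circle, Col17a1 at -3.86 has the lowest point with a standard error of 1.13, and low-level chains such as Col9a1, Col9a2 and Col6a6 have wide bars.

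Type IV collagen was the class with a gene that passed, Col4a4. Col4a1 and Col4a2 encode the chains found in every basement membrane, while Col4a3, Col4a4 and Col4a5 encode another trimer of mature kidney, inner ear and eye membranes, and Col4a6 pairs with Col4a5 in yet another. Col4a4 was at 58.8, 56.4, 65.6, 70.4 and 69.1 CPM in ADQ 1 to 5, against 77.1, 91.4, 88.4, 111 and 82.3 CPM in control 1 to 5. The highest ADQ library lay below the lowest control library. The means were 64.1 ± 6.22 CPM in ADQ and 90.1 ± 13.1 CPM in control (SD, n = 5 each), a 1.41-fold lower level (log2 fold change -0.49, SE 0.11, edgeR adjusted p = 0.0489).

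This call stood close to the threshold. Leaving out 1 library at a time gave edgeR adjusted p-values from 0.0353 to 0.153 with log2 fold changes from -0.54 to -0.41, and Col4a4 passed only without control 5. Scaling by library size alone gave an adjusted p of 0.158 and the non-robust fit 0.0517. DESeq2 gave 0.00345 and limma's voom with quality weights 0.0217.

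Col4a3, the head-to-head neighbour of Col4a4 and its partner in the same trimer, had 47.3, 59.9, 71.8, 70.8 and 68.5 CPM in ADQ, against 66.8, 87.7, 92.4, 83.3 and 66.8 CPM in control. ADQ 1 and ADQ 2 were the lowest, and the groups overlapped between 66.8 and 71.8 CPM. Its log2 fold change was -0.32 (SE 0.13, unadjusted p = 0.0275, edgeR adjusted p = 0.302). About 5.65% of its exon bases are shared with C430014B12Rik on the opposite strand, which was at 0.734 CPM in ADQ and 1.14 CPM in control. Per kilobase, Col4a4 over Col4a3 was 0.864 ± 0.111 in ADQ and 0.968 ± 0.128 in control (SD, n = 5 each), a gap inside the spread between libraries.

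The remaining chain of that trimer, Col4a5, was far lower and uneven. Col4a5 was at 4.46, 5.52, 7.48, 6.39 and 13.1 CPM in ADQ, against 4.06, 5.35, 7.80, 6.90 and 7.38 CPM in control, where ADQ 5 stood above all other libraries. The log2 fold change of 0.23 (SE 0.27, edgeR adjusted p = 0.724) became -0.08 without ADQ 5. Per kilobase, Col4a3 exceeded Col4a5 by 7.24 ± 1.86 times in ADQ and 10.1 ± 2.45 times in control (SD, n = 5 each), so the Col4a5 message was the scarcest of the trimer in both groups. Col4a6 was at 0.822, 1.90, 4.14, 1.43 and 8.05 CPM in ADQ, against 2.18, 1.48, 2.57, 3.13 and 4.51 CPM in control. Its log2 fold change of 0.24 (SE 0.56, edgeR adjusted p = 0.869) also turned, to -0.42 without ADQ 5.

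Neither of the common chains passed. Col4a1 was at 103, 132, 155, 126 and 102 CPM in ADQ, against 96.9, 134, 142, 108 and 125 CPM in control. Col4a2 was at 82.7, 82.5, 110, 100.3 and 75.5 CPM in ADQ, against 82.3, 98.5, 112, 92.8 and 94.0 CPM in control. The groups overlapped over most of their range for both genes, with log2 fold changes of 0.03 (95% interval -0.23 to 0.29) and -0.09 (-0.31 to 0.14). These intervals use a normal approximation and are narrower than the quasi-likelihood test would give. Whether the fold changes of the Col4a4 and Col4a1 chains differ from each other was not tested.

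**Figure D3:**
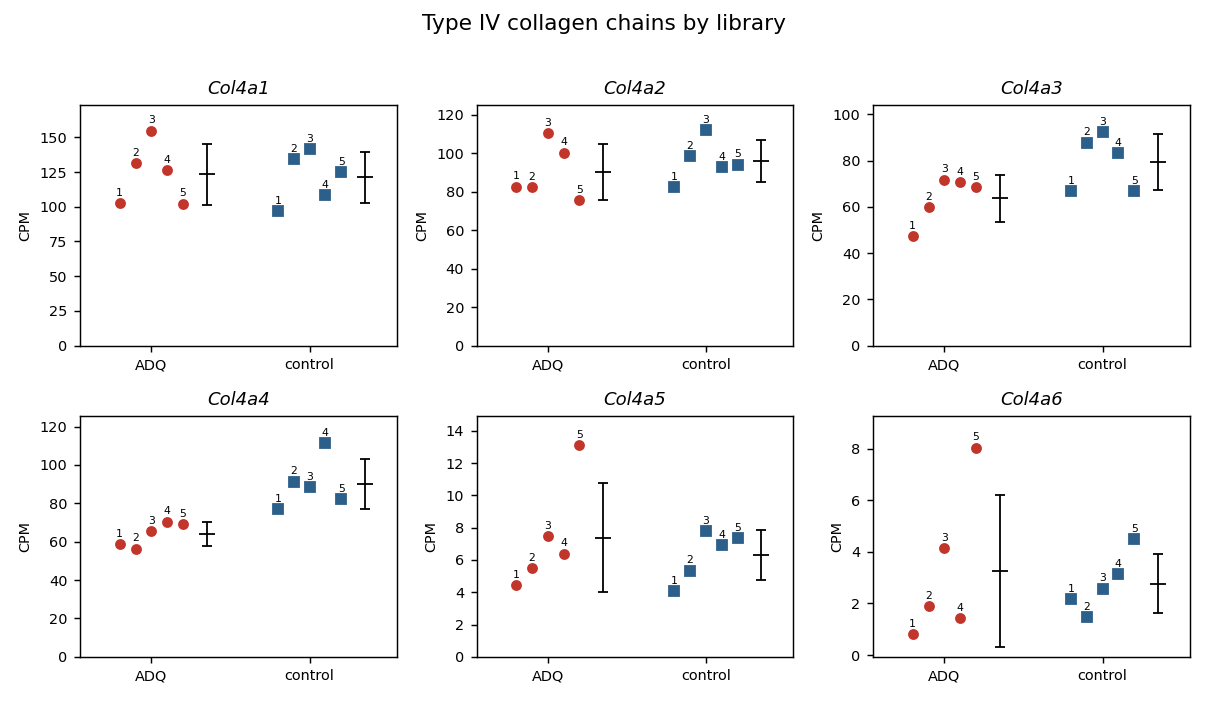
CPM of the 6 type IV collagen genes in each library, ADQ (red circles) to the left of control (blue squares), with library numbers and, beside each group, the mean with a bar of 1 SD; each panel has its own axis from 0 or near it. Col4a4 is the one gene whose groups do not overlap, Col4a3 overlaps slightly, Col4a1 and Col4a2 overlap broadly, and ADQ 5 stands alone at 13.1 CPM in Col4a5 and 8.05 CPM in Col4a6.

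Type VIII chains build the hexagonal lattice of Descemet's membrane behind the cornea and are also made by vascular cells. Col8a1 was at 814, 716, 715, 743 and 760 CPM in ADQ, against 934, 983, 886, 924 and 806 CPM in control. ADQ 1 lay just above control 5, and every other ADQ library lay below all controls. The means were 750 ± 40.6 CPM in ADQ and 907 ± 66.1 CPM in control (SD, n = 5 each), with a log2 fold change of -0.27 (SE 0.09, unadjusted p = 0.00702, edgeR adjusted p = 0.183). Leaving out 1 library at a time gave adjusted p-values from 0.107 to 0.374, while DESeq2 gave 0.0465 and voom 0.0241.

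Col8a2, the other type VIII chain, was at 768, 877, 1124, 1064 and 1158 CPM in ADQ, against 1007, 1109, 1187, 957 and 979 CPM in control. ADQ 1 and ADQ 2 were below all controls and the other ADQ libraries were within the control range, for a log2 fold change of -0.07 (SE 0.12, edgeR adjusted p = 0.821). Col8a2 per kilobase exceeded Col8a1 by 1.58 ± 0.304 times in ADQ and 1.37 ± 0.142 times in control (SD, n = 5 each). Col7a1, the anchoring fibril collagen of skin, was near 1 CPM in both groups (1.23 ± 0.533 CPM in ADQ and 1.34 ± 0.137 CPM in control; SD, n = 5 each).

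With other tests more collagens passed, all in the lower direction. DESeq2, run without the edgeR count filter, called 3 collagens lower (Col4a4, Col8a1 and Col17a1) and 0 higher, where it called 3.26% of all genes, 1.13% lower and 2.13% higher. Voom called 2 lower (Col4a4 and Col8a1) and 0 higher, against 3.21% of all genes, 0.74% lower and 2.47% higher. In the authors' deposited table, which lists 15860 genes and calls 5.42% of them at an adjusted p of 0.05 (1.63% lower), 37 collagens appear and 2 are called, both lower. The authors' deposited table gives Col4a4 a log2 fold change of -0.50 with adjusted p 0.0167, and Col8a1 -0.31 with adjusted p 0.0183. Next in the authors' deposited table are Col11a1, at 0.43 with adjusted p 0.0591, and Col1a1, at 0.83 with adjusted p 0.0597.

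The type I chains had higher means in ADQ than in control, but no fibrillar chain passed. The class summed to 1898 ± 660 CPM in ADQ and 1365 ± 445 CPM in control (SD, n = 5 each), and the median log2 fold change of its 8 genes was 0.08. Col1a1 was at 504, 857, 852, 572 and 282 CPM in ADQ, against 309, 348, 670 and 309 CPM in control 1 to 4 and 282 CPM in control 5. ADQ 5 was as low as the lowest control, and control 3 stood far above the other controls, whose highest was 348 CPM. ADQ 2 and ADQ 3 stood above the other ADQ libraries. The log2 fold change was 0.68 (SE 0.34, unadjusted p = 0.0760, edgeR adjusted p = 0.406). It was 0.53 without ADQ 2 or without ADQ 3, 0.86 without ADQ 5 and 0.98 without control 3.

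Col1a2 encodes the other chain of type I collagen, which pairs with the Col1a1 chain in a fixed ratio. It was at 795, 1267, 1330, 962 and 488 CPM in ADQ, against 578, 576, 1012, 522 and 633 CPM in control. The same libraries stood out: ADQ 5 was the lowest of all and control 3 the highest control. The log2 fold change was 0.54 (SE 0.27, edgeR adjusted p = 0.398). Col1a1 over Col1a2, per kilobase, was 0.563 ± 0.0354 in ADQ and 0.512 ± 0.0738 in control (SD, n = 5 each), and ran from 0.402 to 0.610 over all 10 libraries.

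Col3a1, which forms mixed fibrils with type I in vessels and stroma, did not share the higher means. It was at 199 ± 53.2 CPM in ADQ and 204 ± 85.2 CPM in control (SD, n = 5 each; log2 fold change -0.04, edgeR adjusted p = 0.963). Per kilobase, Col1a1 over Col3a1 was 1.70 to 3.98 in ADQ and 1.37 to 2.58 in control, overlapping ranges. Col5a1, Col5a2 and Col5a3, whose chains set fibril diameter, and Col24a1 and Col27a1 had log2 fold changes between -0.01 and 0.41 and none had an adjusted p below 0.5.

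Several beaded filament and FACIT chains were high in the libraries in which type I was high. Type VI collagen forms beaded filaments around cells. Col6a1 was at 132, 172, 217, 171 and 105 CPM in ADQ, against 107, 126, 178, 123 and 116 CPM in control. Col6a2 was at 127, 156, 184, 163 and 93.9 CPM in ADQ, against 97.5, 110, 156, 121 and 92.5 CPM in control. ADQ 3 was the highest library and control 3 the highest control for both genes, and ADQ 5 was below all controls for Col6a1 and below all but control 5 for Col6a2. The log2 fold changes were 0.29 for Col6a1 (SE 0.19, edgeR adjusted p = 0.490) and 0.33 for Col6a2 (SE 0.18, edgeR adjusted p = 0.435).

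Col6a3, the other common type VI chain, was at 53.1 ± 22.6 CPM in ADQ and 37.1 ± 11.8 CPM in control (SD, n = 5 each; log2 fold change 0.52, edgeR adjusted p = 0.511). Col6a5 and Col6a6, which can take its place, were under 3 CPM in every library.

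Among FACIT chains, Col12a1 and Col14a1 coat type I fibrils. Col12a1 was at 165, 223, 339, 224 and 67.9 CPM in ADQ, against 101, 92.2, 218, 98.5 and 157 CPM in control. Among the collagens at 10 CPM per kilobase or more it had the widest fold range, with ADQ 3 the highest and ADQ 5 the lowest library, and its log2 fold change of 0.61 had an SE of 0.41 (edgeR adjusted p = 0.526). Col16a1 was at 82.8, 138, 154, 108 and 61.2 CPM in ADQ, against 75.4, 70.4, 113, 57.7 and 111 CPM in control (log2 fold change 0.35, SE 0.27, edgeR adjusted p = 0.582). Col14a1 was at 68.0 ± 15.7 CPM in ADQ and 72.0 ± 5.57 CPM in control (SD, n = 5 each; log2 fold change -0.08). Col19a1, Col20a1 and Col22a1 were under 4 CPM in every library, with log2 fold changes between -0.15 and 0.19.

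Marker sums moved with part of this pattern. The summed level of 6 fibroblast markers was 4601 CPM in ADQ 5, the lowest of all libraries, and 6265 to 7847 CPM in the other ADQ libraries, against 6137 to 7122 CPM in control. The 7 skeletal muscle markers summed to 299 CPM in ADQ 5 and to 1360 to 1633 CPM in the other ADQ libraries, against 984 to 2419 CPM in control. Control 3, where type I was highest among controls, had a fibroblast sum of 6706 CPM, inside the control range, the highest surface keratin sum (2142 CPM) and the highest lens sum (378 CPM). Most of the fibroblast sum was Dcn, with means of 5837 CPM in ADQ and 6083 CPM in control, and 4158 CPM in ADQ 5. Pdgfra (48.9 CPM), Lum (305 CPM), Dpt (12.95 CPM) and Pi16 (306 CPM) each had their highest control value in control 3, while Dcn and Thy1 did not. The part of these markers in the collagen levels was not tested.

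**Figure D4:**
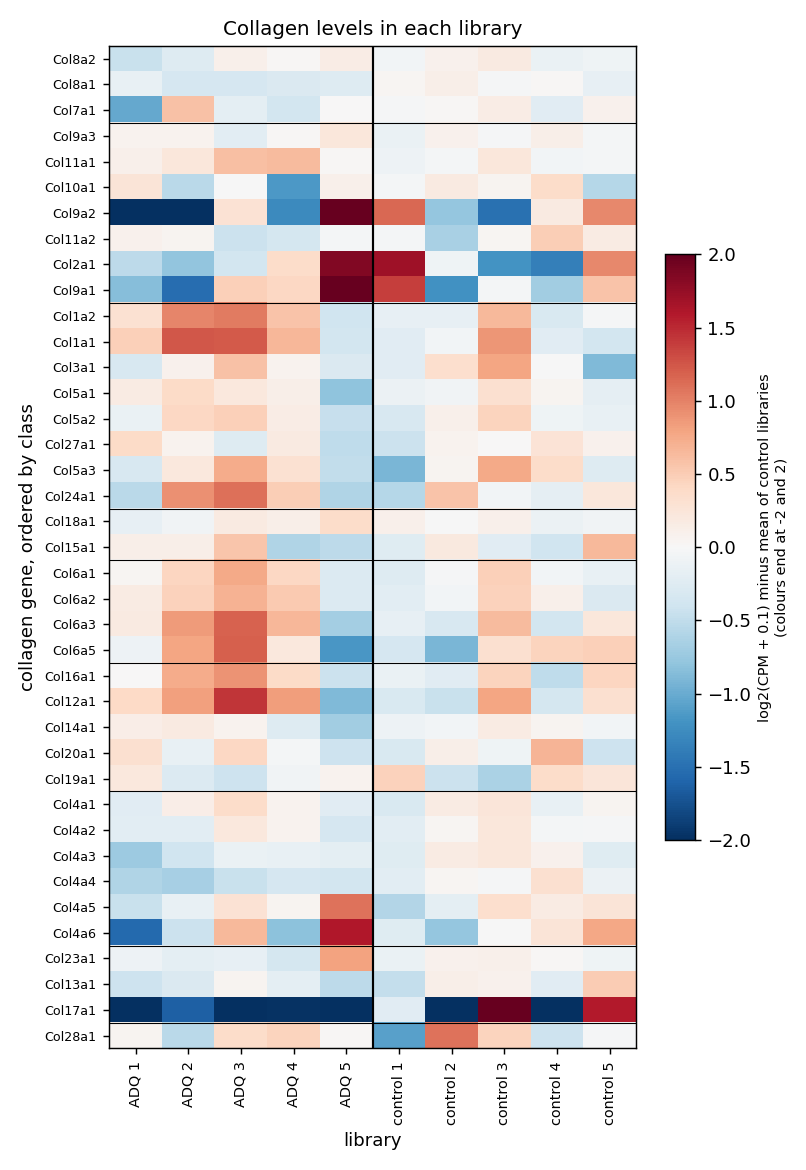
Level in each library of the 39 collagen genes whose mean over all 10 libraries reached 1 CPM, as log2(CPM + 0.1) minus the mean of the control libraries, with ADQ 1 to 5 on the left and control 1 to 5 on the right and colours ending at -2 and 2. Col1a1, Col1a2, Col12a1 and the type VI chains are red together in ADQ 2, ADQ 3, ADQ 4 and control 3 and blue in ADQ 5. Col1a1 and Col1a2 are also red in ADQ 1. Col4a4 is blue in all 5 ADQ libraries, and Col2a1, Col9a1 and Col9a2 are red in ADQ 5, control 1 and control 5.

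Chains of cartilage and vitreous fibrils were uneven. Type II fibrils of cartilage and of the vitreous gel contain type XI chains and carry type IX collagen, a trimer of the Col9a1, Col9a2 and Col9a3 chains, on their surface. Col9a3 was at 552, 554, 455, 535 and 616 CPM in ADQ, against 477, 559, 517, 568 and 512 CPM in control, an even level in both groups (log2 fold change 0.04, SE 0.10, edgeR adjusted p = 0.865). Its partners were far lower in every library. Per kilobase, Col9a3 exceeded Col9a1 by 147 to 2970 times in ADQ and 250 to 2228 times in control, and Col9a2 by 74.9 to 4083 times in ADQ and 116 to 909 times in control. About 6.07% of the exon bases of Col9a3 are shared with Tcfl5 on the opposite strand, which was at 7.22 CPM in ADQ and 12.9 CPM in control.

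Col2a1 was at 1.08, 0.880, 1.22, 2.09 and 6.02 CPM in ADQ, against 5.39, 1.5, 0.644, 0.561 and 3.20 CPM in control. Col9a1 was at 0.433, 0.235, 1.24, 1.19 and 5.26 CPM in ADQ, against 2.41, 0.316, 0.839, 0.496 and 1.33 CPM in control. Col9a2 was at 0.130, 0.157, 2.14, 0.659 and 7.89 CPM in ADQ, against 3.94, 0.967, 0.546, 1.96 and 3.45 CPM in control. ADQ 5, control 1 and control 5 were the highest libraries for all 3 genes, so the unevenness ran across the groups, and their log2 fold changes were 0.01, 0.65 and 0.03 with standard errors from 0.74 to 1.07. Without ADQ 5 all 3 were below 0, at -0.78, -0.47 and -1.48. These were the low ends of the values with 1 library left out, whose high ends were 0.62, 1.17 and 0.36.

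Optc, a gene chosen after its values were seen, encodes opticin, a protein of vitreous fibrils. It was at 0.736, 1.68, 0.553, 0.923 and 23.6 CPM in ADQ, against 18.0, 0.632, 1.07, 3.69 and 17.6 CPM in control. Its highest values were in the same 3 libraries, but a gene chosen by its values cannot serve as a check of that pattern. The rod marker sum was high in ADQ 5, ADQ 4 and control 1 and at its lowest control value in control 5. ADQ 4, with a rod sum of 2555 CPM against 2031 CPM in control 1, was at 2.09 CPM in Col2a1 and 1.19 CPM in Col9a1. It was at 0.659 CPM in Col9a2 and 0.923 CPM in Optc. The 7 chondrocyte markers summed to 225 to 242 CPM in ADQ and 205 to 252 CPM in control, most of it Sox9, at 217 ± 15.1 CPM in ADQ and 225 ± 20.6 CPM in control (SD, n = 5 each). Cnmd was at 4.36 to 24.8 CPM in ADQ and 3.83 to 13.0 CPM in control. Matn3 was at 7.72 CPM in ADQ 5, at 0.0440 to 0.293 CPM in the other ADQ libraries and at 0.229 to 1.99 CPM in control. Hapln1, Matn1 and Snorc were under 0.4 CPM in every library, and Acan was at 0.394 CPM in ADQ and 0.508 CPM in control. The source of the Col2a1, Col9a1 and Col9a2 messages was not tested.

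Col11a1, a type XI chain that nucleates thin fibrils, was the one collagen with an unadjusted p under 0.05 in the higher direction. It was at 25.3, 27.7, 35.7, 36.5 and 23.9 CPM in ADQ, against 21.9, 22.9, 27.8, 22.8 and 23.0 CPM in control. ADQ 3 and ADQ 4 lay above all controls, ADQ 1, ADQ 2 and ADQ 5 lay above all controls but control 3, and the log2 fold change was 0.33 (SE 0.13, unadjusted p = 0.0215, edgeR adjusted p = 0.278). Col11a2, its partner, was at 3.71 ± 0.599 CPM in ADQ and 4.18 ± 1.14 CPM in control, and Col10a1, known from hypertrophic cartilage, at 5.65 ± 1.98 CPM in ADQ and 6.59 ± 1.51 CPM in control (SD, n = 5 each).

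Transmembrane chains held the gene with the largest fitted difference of the family. Col17a1 anchors surface epithelia such as epidermis and cornea to their basement membrane as part of the hemidesmosome. It was at 0.108, 0.587, 0.324, 0.440 and 0.232 CPM in ADQ, against 1.72, 0.434, 15.8, 0.345 and 6.30 CPM in control. Only control 1, control 3 and control 5 were above 1 CPM, and control 2 and control 4 lay within the ADQ range. The log2 fold change was -3.86 (SE 1.13, edgeR adjusted p = 0.187), and -2.70 without control 3. DESeq2 called it lower (adjusted p = 0.00567), whereas voom gave -1.54 (adjusted p = 0.369).

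The 7 keratins of the surface epithelium list summed to 179, 2.41, 2142, 67.1 and 565 CPM in control 1 to 5, against at most 2.05 CPM in ADQ. Control 4 was thus above the ADQ range for the keratins but within it for Col17a1. Krt5, a keratin of basal epithelial cells, was at 0 to 0.132 CPM in ADQ, against 24.7, 0.355, 316, 10.03 and 117 CPM in control. All 5 keratins of that list that could be tested had an unadjusted p under 0.05 in the lower direction, against 5.85% of all genes, and none passed the adjusted threshold of edgeR. DESeq2, run without the count filter, called 6 of the 7 lower, and voom called 0. Their part in the Col17a1 value was not tested.

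Col23a1, a transmembrane collagen that can be shed, was at 27.5, 25.8, 26.3, 23.3 and 51.6 CPM in ADQ, against 27.1, 31.4, 31.9, 30.0 and 27.9 CPM in control. Without ADQ 5, which stood far above every other library, its log2 fold change of 0.06 became -0.21 (edgeR adjusted p = 0.340). Col13a1, a transmembrane collagen of the neuromuscular junction, was at 5.15, 5.63, 7.13, 5.98 and 4.77 CPM in ADQ, against 4.90, 7.48, 7.31, 5.89 and 9.83 CPM in control (log2 fold change -0.31, SE 0.19, edgeR adjusted p = 0.478). Col25a1, a neuronal transmembrane collagen, was under 0.5 CPM in every library.

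**Figure D5:**
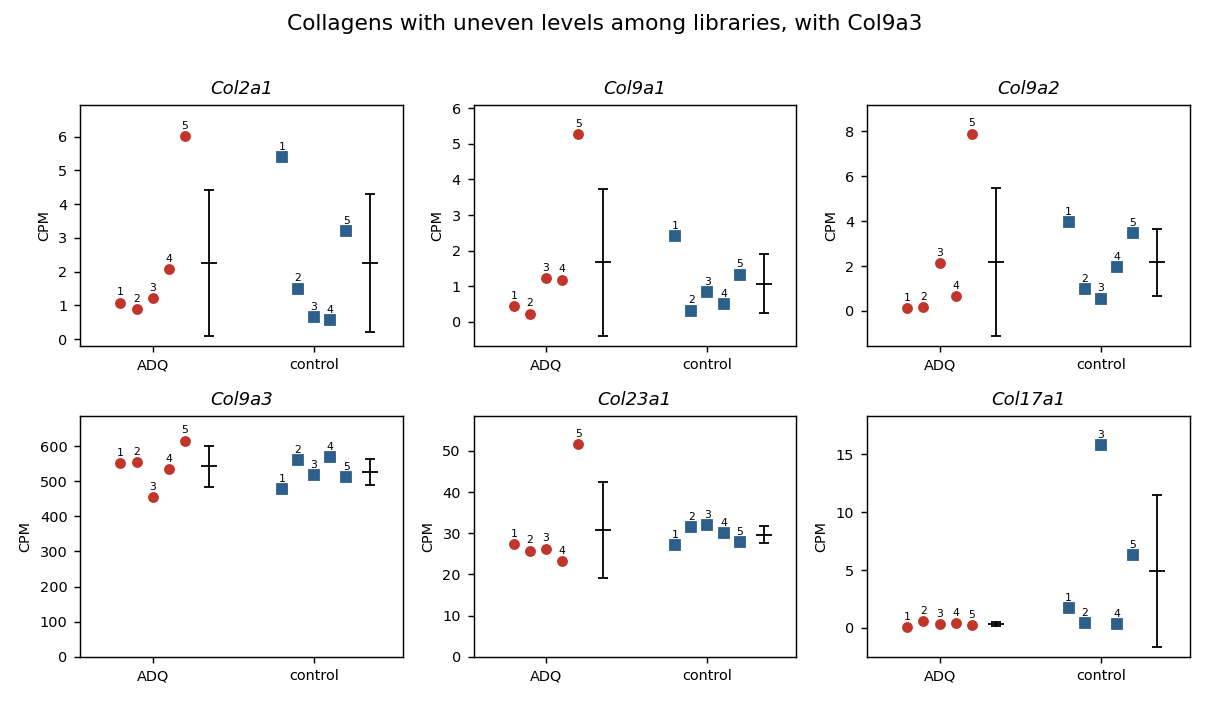
CPM of Col2a1, Col9a1, Col9a2, Col9a3, Col23a1 and Col17a1 in each library, ADQ (red circles) to the left of control (blue squares), with library numbers and the mean with a bar of 1 SD. ADQ 5, control 1 and control 5 stand above the rest in Col2a1, Col9a1 and Col9a2, Col9a3 is even at 455 to 616 CPM, ADQ 5 alone is high in Col23a1, and control 3 and control 5 are high in Col17a1.

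Multiplexins are basement membrane proteoglycans, and the Col18a1 product is the source of endostatin. Col18a1 was at 200, 212, 251, 242 and 287 CPM in ADQ, against 238, 221, 240, 205 and 212 CPM in control. ADQ 1 lay below the control range, ADQ 2 inside it and the other ADQ libraries above it. The log2 fold change was 0.10 (95% interval by the same normal approximation -0.11 to 0.30, edgeR adjusted p = 0.698). Col15a1 was at 4.20, 4.21, 5.72, 2.53 and 2.66 CPM in ADQ, against 3.28, 4.48, 3.32, 2.93 and 6.15 CPM in control (log2 fold change -0.06, edgeR adjusted p = 0.935). Of the remaining genes, Col28a1 was at 0.930, 0.587, 1.18, 1.25 and 0.913 CPM in ADQ, against 0.367, 2.01, 1.25, 0.647 and 0.873 CPM in control. Col26a1 was at 0.779, 0.685, 0.515, 0.703 and 0.573 CPM in ADQ, against 0.825, 0.138, 0.449, 0.668 and 1.08 CPM in control. Their log2 fold changes were -0.09 and 0.04, and the groups overlapped.

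The genes that make, read and remove collagen were examined as 5 lists, and edgeR called 0 of their members. Of all genes tested, edgeR called 0.827%, 13.8% had an unadjusted p under 0.05, and 3.16% had groups that did not overlap. Among 21 genes of hydroxylation and folding, all tested, the median log2 fold change was 0.04 and 1 had an unadjusted p under 0.05. This was Fkbp14, a prolyl isomerase of the endoplasmic reticulum, at 20.7 ± 2.62 CPM in ADQ and 16.7 ± 3.03 CPM in control (SD, n = 5 each; edgeR adjusted p = 0.340). Fkbp7, another isomerase, was at 51.6 ± 6.06 CPM in ADQ and 44.9 ± 4.35 CPM in control (edgeR adjusted p = 0.391). Colgalt2, which adds galactose to collagen, was at 4.11 ± 1.11 CPM in ADQ and 3.45 ± 0.660 CPM in control (edgeR adjusted p = 0.620). Serpinh1, the collagen chaperone HSP47, was at 466 ± 32.9 CPM in ADQ and 510 ± 134 CPM in control (log2 fold change -0.13).

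Of 13 genes of procollagen trimming and cross-linking, 12 were tested, with a median log2 fold change of 0.11, and 1 had an unadjusted p under 0.05. Pcolce2, a secreted enhancer of the proteinase that removes the C-propeptide, was at 36.8, 33.8, 38.01, 35.5 and 40.4 CPM in ADQ, against 44.7, 41.9, 47.3, 50.1 and 61.3 CPM in control. All ADQ libraries lay below all controls (log2 fold change -0.41, SE 0.10, edgeR adjusted p = 0.0943), and DESeq2 and voom each called it lower. Lox, which cross-links fibrils, was at 31.1 ± 8.98 CPM in ADQ and 20.7 ± 7.70 CPM in control (SD, n = 5 each; log2 fold change 0.59, edgeR adjusted p = 0.375). Adamts3, a procollagen N-proteinase, was at 0.535 ± 0.123 CPM in ADQ and 0.338 ± 0.191 CPM in control (edgeR adjusted p = 0.493).

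None of 10 collagen receptors had an unadjusted p under 0.05, and their median log2 fold change was 0.21. The smallest p-values were those of Itgb1, the integrin beta chain shared by the collagen-binding integrins, of Adgrg6, a receptor of type IV collagen, and of Mrc2, an uptake receptor. Itgb1 was at 185 ± 26.4 CPM in ADQ and 155 ± 22.5 CPM in control (SD, n = 5 each; log2 fold change 0.26, edgeR adjusted p = 0.362). Adgrg6 was at 5.89 ± 1.31 CPM in ADQ and 4.56 ± 0.515 CPM in control (edgeR adjusted p = 0.368), and Mrc2 at 69.2 ± 7.35 CPM in ADQ and 59.2 ± 11.04 CPM in control (edgeR adjusted p = 0.419).

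Of 9 genes of collagen breakdown the median log2 fold change was 0.14, and 1 had an unadjusted p under 0.05. Mmp13, a collagenase, was at 1.19, 2.66, 1.79, 1.34 and 1.13 CPM in ADQ, against 0.825, 0.868, 0.858, 0.625 and 0.707 CPM in control. The groups did not overlap (log2 fold change 1.06, SE 0.28, edgeR adjusted p = 0.113), and DESeq2 called it higher while voom did not. Mmp14, a membrane collagenase, was at 204 ± 37.3 CPM in ADQ and 176 ± 26.2 CPM in control (SD, n = 5 each; edgeR adjusted p = 0.487). Ctsk, a lysosomal collagenase, was at 94.7 ± 15.8 CPM in ADQ and 86.3 ± 6.33 CPM in control (edgeR adjusted p = 0.594).

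Finally, the 16 laminins, nidogens and other partners of type IV collagen had a median log2 fold change of 0.01. Lama1, the embryonic laminin alpha chain, was the one with an unadjusted p under 0.05, at 1.06 ± 0.179 CPM in ADQ and 0.573 ± 0.129 CPM in control (SD, n = 5 each; log2 fold change 0.88, edgeR adjusted p = 0.163), and its groups did not overlap. Lamb3, a laminin chain of surface epithelia, had a log2 fold change of -1.16, with its highest level in control 3 at 6.34 CPM (edgeR adjusted p = 0.454). Of the partners above 30 CPM in both groups, Lamb1 had a log2 fold change of -0.15, Hspg2 -0.05, Nid1 -0.01, Nid2 -0.01, Lamb2 0.04 and Lamc1 0.16, and none passed.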

How the data were processed

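Per the labels' protocols, RNA came from TRIzol lysates by way of NucleoSpin columns, and SMARTer amplification made the cDNA. GRCm38, bcl2fastq, DRAGEN, edgeR and limma are named in the submitters' processing notes, without versions; the strand and annotation used for counting were not given in the sources used here. Whole-number counts per gene and library, not normalized, were deposited with 55774 entries; 287 repeated entries with identical counts were removed. The authors' deposited results table holds log2 CPM, log2 fold changes and raw and adjusted p-values; it was used for comparison only. Amplified reads carry no molecular identifiers here.

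Groups came from the sample titles. All 10 libraries were fitted with edgeR 4.0.16 (limma 3.58.1, R 4.3.3): filterByExpr (minimum count 10, minimum total 15), TMM, the robust quasi-likelihood test on 1 term, group, and Benjamini-Hochberg adjustment at 0.05 over 20684 genes. Standard errors divide the log2 fold change's size by the root of F. Kilobases are those of the transcript with the longest coding sequence in GENCODE M21, which holds 99.4% of the identifiers. No pair of libraries was a duplicate (smallest chi-square 33.9 per degree of freedom over genes with at least 500 counts). The fit was tested on simulated data.

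Named collagens were all type IV genes, those with an unadjusted p under 0.05 and the 2 highest per class by CPM per kilobase; of each further list, up to 3 with the smallest p. One gene that this rule names is not reported here. Col3a1, Serpinh1, Lamb1, Lamb2, Lamc1, Nid1, Nid2, Hspg2 and the other collagens named beside these were added for description. The members, classes and lists were chosen with earlier results of these data known. Alternatives were RLE, upper-quartile and library-size scaling, no filter or 1 CPM in 5 libraries, a non-robust fit, the replicate number as a block, a transcript length covariate, DESeq2 1.42.0, voom with quality weights and each library left out.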

Additional observations from a re-analysis of the deposited data

Results flagged for a closer look

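Among the collagen genes, 88 groups of 5 libraries were examined for a library whose gap to its nearest neighbour was large for the range of its group (Dixon's critical value 0.71). Chance marks about 5% of such groups, and 8 groups, 9.09%, were marked. They came from 2 libraries.

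ADQ 5 stood above the other ADQ libraries in Col23a1 at 51.6 CPM (others 23.3 to 27.5), in Col2a1 at 6.02 CPM (others 0.880 to 2.09), in Col9a1 at 5.26 CPM (others 0.235 to 1.24) and in Col9a2 at 7.89 CPM (others 0.130 to 2.14). Control 3 stood above the other control libraries in Col1a1 at 670 CPM (others 282 to 348), in Col1a2 at 1012 CPM (others 522 to 633), in Col6a1 at 178 CPM (others 107 to 126) and in Col11a1 at 27.8 CPM (others 21.9 to 23.0). ADQ 5 also had the highest rod marker sum, and control 3 the highest surface keratin and lens marker sums, whose part in these levels was not tested.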

How the results depend on the processing

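Over 20 alternatives, the collagen genes called higher stayed at 0, and the median log2 fold change of the collagens ran from 0.004 to 0.132 (0.004 to 0.089 with 1 library left out). The collagens called lower numbered 0 with library size alone and with the non-robust fit, 3 with DESeq2, 2 with voom, and 0 to 1 with 1 library left out. Over all genes, those called higher numbered 392 with the replicate block, 406 with the length covariate, 502 with DESeq2, 511 with voom and 69 to 316 with 1 library left out. Those called lower numbered 32 without the filter, 41 with the non-robust fit, 302 with the block, 108 with the length covariate, 266 with DESeq2, 153 with voom and 5 to 41 with 1 library left out. The trimming and cross-linking list had 2 members called with the block and 1 each with the length covariate, DESeq2 and voom; the breakdown list had 1 with DESeq2. The cause was not tested.

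Of 23 named collagens, 13 never changed sign. Library size alone, which shifted the median of all genes by 0.085, gave log2 fold changes of 0.031 for Col15a1, 0.001 for Col4a2 and 0.019 for Col8a2. The block gave -0.007 for Col23a1, 0.095 for Col28a1 and -0.091 for Col4a6, the length covariate -0.05 for Col4a6, and voom -0.12 for Col23a1 and -0.13 for Col4a6. With 1 library left out, Col15a1 ran from -0.25 to 0.14, Col23a1 from -0.21 to 0.15, Col26a1 from -0.21 to 0.33, Col28a1 from -0.29 to 0.31, Col4a1 from -0.067 to 0.089, Col4a5 from -0.079 to 0.37, Col4a6 from -0.42 to 0.49, Col8a2 from -0.13 to 0.011 and Col9a3 from -0.008 to 0.099. Col17a1, Col26a1 and Col28a1 had no value with 1 CPM in 5 libraries. Col17a1 passed with DESeq2 (adjusted p = 0.00567); its log2 fold change was -1.54 with voom (adjusted p = 0.369) and -2.84 with the block (0.357).

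Replicate numbers are shared by the groups, and deviations of same-numbered libraries correlated by -0.11 to 0.16. Whether the numbers mark pairs cannot be told from this, because differently numbered libraries were not correlated. With the replicate block Col4a4 had an edgeR adjusted p of 0.0152 and was the 1 collagen called. With 5 libraries a group, how far the spread between libraries and how far depth limit the precision of each collagen was not tested. For Col6a4 and other chains under 0.5 CPM low counts limit the precision.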
